A study of Mus musculus with 24 samples.

Results

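The transcripts of 9 genes, Aqp3, Kit, Lima1, Upp1, Kif5a, Phex, Soga3, Lin28a and Foxp4, were followed in mouse embryonic stem cells (mESCs) on soft and stiff substrates. The genes were picked by symbol because they differed between soft and stiff at 0 h or 12 h of PD03 removal, and all 9 were found among the 35022 genes counted in PD03 removal and the 48709 counted in CHIRON removal. The cells were E14, an established mESC line whose strain label is 129m wt, seeded on fibronectin-coated StemBond hydrogels, which are polyacrylamide gels made soft or stiff. Every group first spent 12 h in 2i+LIF, that is, LIF with 1 µM PD03 and 3 µM CHIRON. Libraries of 0 h came from cells still in 2i+LIF, and the others from cells 2 h or 12 h after PD03 (leaving CHIRON + LIF) or CHIRON (leaving PD03 + LIF) was taken away. Soft and stiff substrates at each of the 3 times had 2 libraries per experiment, 24 in all. Thus every group held LIF and at least 1 of the inhibitors, and no group without either was compared. The study's legends call these experiments triplicate. Only 2 libraries per group were analysed here, and whether they came from separate cultures is not stated, so p-values measure the spread between these libraries, which may be technical.

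Total counts were 16222196 to 26442153 per library in PD03 removal and 19393787 to 31111260 in 11 libraries of CHIRON removal. The remaining library, stiff replicate 1 at 2 h of CHIRON removal, had 171333 counts and was left out, so stiff at 2 h had 1 library there. All 12 markers of naïve mESCs reached 1 CPM (a read count scaled to the library total) on average in both experiments, with summed levels of 6258 to 7596 CPM and 7440 to 8602 CPM. The 7 markers of primitive endoderm summed to 3.33 to 6.03 and 11.9 to 17.9 CPM and the 8 of fibroblasts to 2.49 to 4.07 and 7.41 to 11.2 CPM. Higher sums were found for 6 trophoblast markers, 3 of them at 1 CPM or more on average (59.6 to 77.1 and 65.8 to 73.8 CPM). The same held for 6 markers of formative or primed cells (255 to 384 and 99.5 to 118 CPM). Markers of 2-cell-like cells summed to 80.4 to 151 CPM over 6 genes in PD03 removal. In CHIRON removal only 4 of them were among the genes counted (49.1 to 64.4 CPM), so these sums cover different genes. For each of these lists the ranges on soft and stiff substrates overlapped within an experiment. The experiments were normalised separately, and every test was run within 1 of them. Lima1, Phex, Soga3, Lin28a and Foxp4 overlap between 1 and 4 other annotated genes, at least 1 of them on the opposite strand, and whether the counting used strand is not given in the sources used here.

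PD03 inhibits MEK, the kinase that activates ERK, and taking it away lets ERK signalling resume. CHIRON inhibits GSK3, and taking it away lets β-catenin be degraded, which lowers Wnt target transcription. The 9 genes do not belong to 1 pathway. Aqp3 encodes a membrane channel for water and glycerol, Kit the receptor tyrosine kinase for stem cell factor, and Phex a zinc peptidase of the cell surface best known from bone. Lima1 (also called EPLIN) bundles actin filaments and links them to α-catenin at adherens junctions, and Kif5a is a heavy chain of the microtubule motor kinesin-1, best known from neurons. Upp1 splits uridine into uracil and ribose-1-phosphate. Lin28a is an RNA-binding protein that blocks maturation of let-7 miRNAs and is known from pluripotent cells, Foxp4 is a forkhead transcription factor, and Soga3 is a coiled-coil protein of a small family.

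The start regions of 4 genes are shown because Lima1 and Upp1 were lower and Soga3 and Lin28a were higher 12 h after PD03 removal, and because the motifs searched were found in the first pair. Each is the 250 bases before a RefSeq transcript start (GRCm38.p6), 5′ to 3′ on the strand of the gene, and capitals mark a match to a motif on either strand.
Lima1, chr15:99820150-99820399, minus strand: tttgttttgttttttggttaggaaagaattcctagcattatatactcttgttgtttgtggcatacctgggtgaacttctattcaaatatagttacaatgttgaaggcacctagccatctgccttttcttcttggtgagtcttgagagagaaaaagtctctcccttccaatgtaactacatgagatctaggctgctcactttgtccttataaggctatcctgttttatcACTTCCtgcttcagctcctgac
Upp1, chr11:9117758-9118007, plus strand: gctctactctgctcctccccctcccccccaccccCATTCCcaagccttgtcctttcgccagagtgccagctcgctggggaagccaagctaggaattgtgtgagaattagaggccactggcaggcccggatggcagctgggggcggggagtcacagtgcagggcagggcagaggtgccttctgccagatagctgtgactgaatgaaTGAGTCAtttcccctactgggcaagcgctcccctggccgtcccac
Soga3, chr10:29143746-29143995, plus strand: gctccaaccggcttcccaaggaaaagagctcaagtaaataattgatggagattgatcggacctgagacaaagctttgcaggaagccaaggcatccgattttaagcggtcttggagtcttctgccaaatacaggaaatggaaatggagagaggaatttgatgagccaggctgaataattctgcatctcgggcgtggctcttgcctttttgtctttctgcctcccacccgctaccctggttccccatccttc
Lin28a, chr4:134018817-134019066, minus strand: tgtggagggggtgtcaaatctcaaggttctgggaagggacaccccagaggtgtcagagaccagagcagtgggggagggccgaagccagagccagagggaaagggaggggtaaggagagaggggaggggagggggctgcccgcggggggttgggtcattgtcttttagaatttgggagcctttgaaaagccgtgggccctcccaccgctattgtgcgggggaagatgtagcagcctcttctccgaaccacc
The capitals in Lima1 are the ETS motif GGAAGT read on the other strand, and those in Upp1 are the TEAD motif CATTCC and the AP-1 motif TGACTCA, the latter read on the other strand. The E-box CACGTG and the Klf motif GGGTGTG were also searched. Windows were found for 8 of the 9 genes, with 2 for Kit and 3 for Upp1, and only those of Lima1 and Upp1 held any of the 5 motifs. Aqp3 and Kit, which were also lower 12 h after PD03 removal, held none. The genes shown were picked by their motifs, so they do not link motifs to a direction. Of all 32851 windows of this length, 19.7% held GGAAGT, 12.6% CATTCC, 4.46% TGACTCA, 6.02% CACGTG and 6.93% GGGTGTG. The window shown for Lima1 lies before an internal start, since the gene reaches further upstream in the annotation. A match is a run of letters only, and none was tested for binding.

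Of these genes, 7 were picked from 12 h after PD03 removal and 2 from 0 h. On soft substrates at 12 h the levels of Aqp3, Kit, Lima1 and Upp1 were higher and those of Soga3, Lin28a and Foxp4 lower than on stiff substrates. At 0 h Kif5a and Phex were higher on soft substrates. At 12 h 0.291% of the 13423 genes tested were higher on soft with an adjusted p below 0.05 and 0.477% lower, and at 0 h 0.0149% were higher (Benjamini-Hochberg adjustment of edgeR's quasi-likelihood p-values). The share at 0 h is made up of Kif5a and Phex themselves. They ranked 3 and 4 by p, and the genes ranked above them were called lower on soft. Since the soft to stiff values of 0 h and 12 h chose the genes, they are a description without a test. At 0 h Phex lay just inside the threshold (adjusted p = 0.0498, edgeR), and the next gene, Peg10, lay well outside (adjusted p = 0.14, edgeR). At 12 h Glmp lay just inside (log2 fold change 0.25, adjusted p = 0.0493, edgeR) and Jph4 just outside (log2 fold change −2.25, adjusted p = 0.0501, edgeR). With DESeq2 neither Kif5a nor Phex was called at 0 h (0.0149% of all genes), whereas all 7 of 12 h were (0.536%). Leaving out 1 of the 4 libraries of 12 h lost the call of Foxp4 each time (adjusted p from 0.086 to 0.16, edgeR), that of Upp1 without soft replicate 2 or stiff replicate 2 (adjusted p = 0.21 and 0.12, edgeR) and that of Lima1 without stiff replicate 1 (adjusted p = 0.073, edgeR). At 0 h the calls of Kif5a and Phex were lost without any 1 of the 4 libraries and when all genes were tested (adjusted p from 0.11 to 0.84, edgeR). In bulk RNA, fewer cells of a type and less RNA per cell cannot be told apart.

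**Figure D1:**
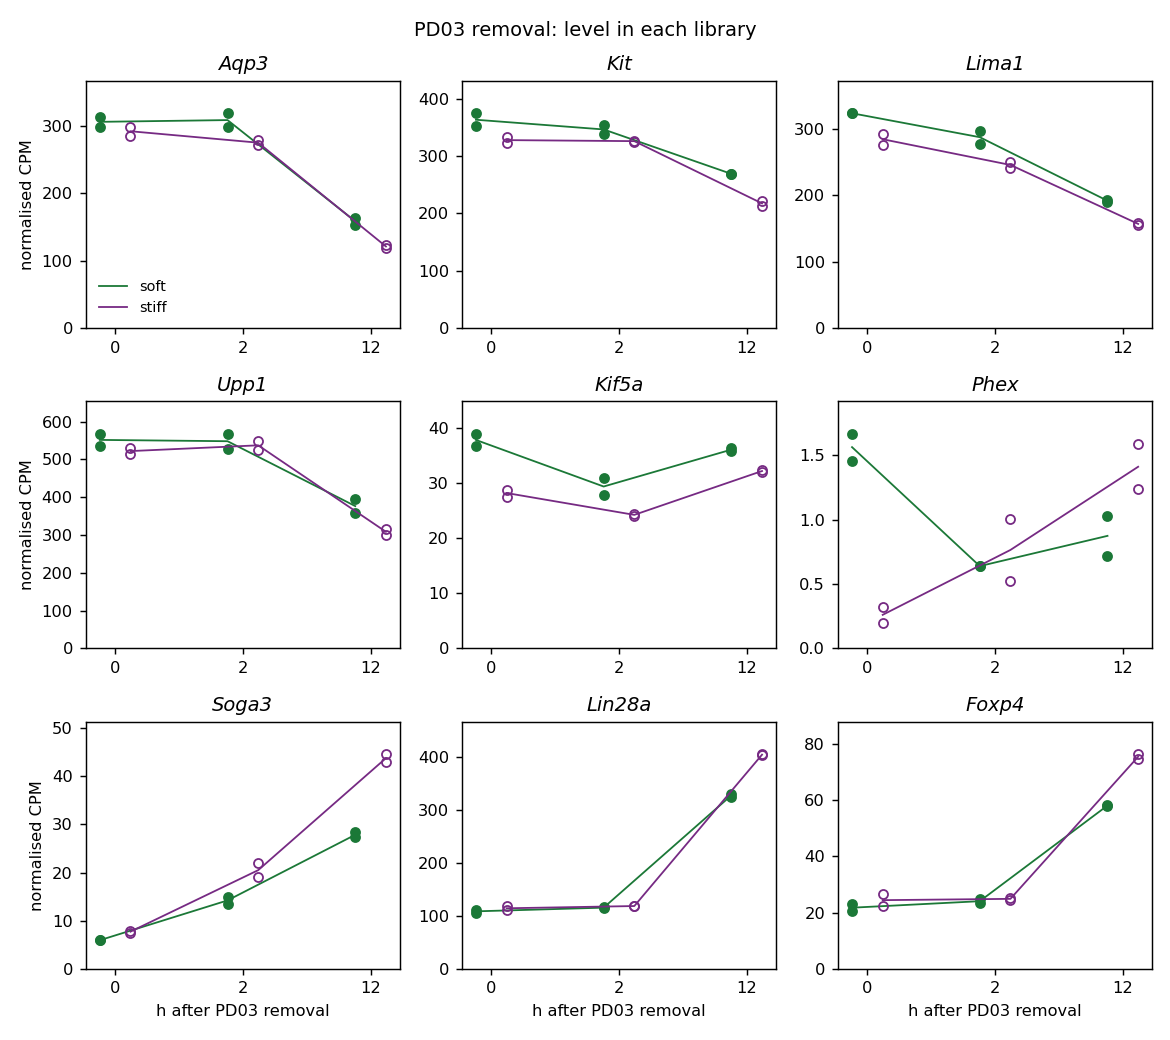
Normalised CPM (vertical axis, from 0) of each gene against hours after PD03 removal (horizontal axis, times evenly spaced). Filled green points are single libraries on soft substrates, open purple points single libraries on stiff substrates, and lines join the means of 2 libraries. Soga3, Lin28a and Foxp4 climbed to 12 h with the stiff libraries on top, whereas Aqp3, Kit, Lima1 and Upp1 dropped to 12 h with the soft libraries on top.

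Values not used for the choice were those of 2 h after PD03 removal and those of CHIRON removal. At 2 h after PD03 removal, 2 of the 9 genes passed the threshold between soft and stiff, Lima1 higher on soft and Soga3 lower on soft. Over all genes, 0.00745% were called higher on soft and 0.127% lower. In CHIRON removal none of the 9 passed the threshold at 0 h, at 2 h, at 12 h or in the mean of the 3 times, by edgeR or by DESeq2, and 0% of all 14615 genes did. In the mean of the times 2 of the 9 had an unadjusted p below 0.05, Lima1 and Kif5a, both higher on soft, against 7.01% of all genes. At the single times this held for 0 of 9 at 0 h (all genes 3.48%), for Kif5a at 2 h (5.73%) and for Lima1 and Lin28a at 12 h (3.22%). The median size of the soft to stiff difference (log2, regardless of sign) was 0.17 in the 9 genes against 0.083 in all genes at 2 h of PD03 removal. In the mean of times of CHIRON removal it was 0.11 against 0.075. At its single times the 9 genes lay below all genes at 0 h (0.071 against 0.0998) and 2 h (0.093 against 0.141), and above them at 12 h (0.143 against 0.098).

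Aqp3 (chromosome 4, 41092722 to 41098183, minus strand of GRCm38) was picked for a higher level on soft substrates. On soft substrates Aqp3 had 299 and 314 normalised CPM at 0 h, 299 and 319 CPM after 2 h, then 153 and 164 CPM after 12 h of PD03 removal. Aqp3 on stiff substrates had 299 and 286 CPM at 0 h, 279 and 271 after 2 h, then 124 and 118 after 12 h. The libraries overlapped at 0 h, and at 2 h and 12 h both soft libraries lay above both stiff ones. For Aqp3 the log2 fold change of soft over stiff was 0.068 at 0 h against 0.39 at 12 h. At 2 h it was 0.17 (95% interval 0.064 to 0.27) with an unadjusted p of 0.0024 and an adjusted p of 0.29 (edgeR's quasi-likelihood test). During CHIRON removal Aqp3 had 321 and 309 normalised CPM at 0 h, 295 and 269 CPM after 2 h, then 358 and 385 CPM after 12 h on soft substrates. In stiff libraries Aqp3 had 291 and 311 CPM at 0 h, 294 after 2 h, then 332 and 361 after 12 h, and the substrates overlapped at every time. Aqp3 had a mean log2 fold change over the 3 times of 0.036 (95% interval −0.071 to 0.14, adjusted p = 0.90, edgeR), an interval that ends below the size at 12 h of PD03 removal.

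The receptor gene Kit (chromosome 5, 75574916 to 75656722, plus strand) also had a higher level on soft substrates at 12 h. On soft substrates Kit had 374 and 352 normalised CPM at 0 h, 339 and 353 CPM after 2 h, then 268 and 269 CPM after 12 h of PD03 removal. Kit on stiff substrates had 322 and 333 CPM at 0 h, 325 and 327 after 2 h, then 222 and 213 after 12 h, below both soft libraries at each time. For Kit the log2 fold change of soft over stiff was 0.15 at 0 h against 0.31 at 12 h. The difference at 2 h, 0.087, did not pass the threshold (95% interval −0.0068 to 0.18, adjusted p = 0.61, edgeR). During CHIRON removal Kit had 453 and 474 normalised CPM at 0 h, 448 and 471 CPM after 2 h, then 377 and 345 CPM after 12 h on soft substrates. In stiff libraries Kit had 459.6 and 498 CPM at 0 h, 483 after 2 h, then 389 and 365 after 12 h. Here the log2 fold change over the 3 times had the other sign, −0.060 (95% interval −0.16 to 0.045, adjusted p = 0.81, edgeR), and the substrates overlapped at 0 h and 12 h.

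Lima1 (chromosome 15, 99778470 to 99875456, minus strand), the actin-bundling gene, had a higher level on soft substrates at all 3 times of PD03 removal. On soft substrates Lima1 had 324 and 324 normalised CPM at 0 h, 278 and 298 CPM after 2 h, then 193 and 190.3 CPM after 12 h. Lima1 on stiff substrates had 293 and 277 CPM at 0 h, 241 and 251 after 2 h, then 156 and 158 after 12 h, and at each time both lay below both soft libraries. For Lima1 the log2 fold change of soft over stiff was 0.19 at 0 h against 0.29 at 12 h. At 2 h, in libraries the choice did not use, Lima1 was higher on soft substrates by 0.23 (SE 0.048, 95% interval 0.13 to 0.32, adjusted p = 0.043, edgeR). This call was kept with DESeq2 (adjusted p = 0.037). It was lost when all genes rather than protein-coding genes were tested (adjusted p = 0.094, edgeR), when only the 2 h groups were fitted (adjusted p = 0.16, edgeR) and when any 1 of the 4 libraries was left out (adjusted p from 0.10 to 0.39, edgeR). During CHIRON removal Lima1 had 186 and 180.1 normalised CPM at 0 h, 175 and 165 CPM after 2 h, then 91.4 and 104 CPM after 12 h on soft substrates. In stiff libraries Lima1 had 167 and 181 CPM at 0 h, 159 after 2 h, then 85.5 and 85.6 after 12 h. Here the soft libraries lay above the stiff ones at 2 h, with 1 stiff library, and at 12 h. Lima1 had a mean log2 fold change over the 3 times of 0.12 (95% interval 0.012 to 0.22) with an unadjusted p of 0.031 and an adjusted p of 0.69 (edgeR's quasi-likelihood test). This interval lay above 0 and ended below the size at 12 h of PD03 removal. At the matching 12 h of CHIRON removal the log2 fold change was 0.19 (95% interval 0.016 to 0.36, adjusted p = 1.00, edgeR), an interval that held that size.

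Upp1, the uridine phosphorylase gene (chromosome 11, 9118103 to 9136170, plus strand), had the highest levels per length of the 9 in PD03 removal. On soft substrates Upp1 had 535 and 568 normalised CPM at 0 h, 528 and 568 CPM after 2 h, then 357 and 396 CPM after 12 h. Upp1 on stiff substrates had 514 and 529.9 CPM at 0 h, 549 and 526 after 2 h, then 316 and 301 after 12 h. Both soft libraries were above both stiff libraries at 0 h and 12 h, whereas the substrates overlapped at 2 h. For Upp1 the log2 fold change of soft over stiff was 0.079 at 0 h against 0.29 at 12 h. The 2 h value of Upp1 was 0.028 (95% interval −0.073 to 0.13, adjusted p = 0.92, edgeR). During CHIRON removal Upp1 had 122 and 114 normalised CPM at 0 h, 106 and 115 CPM after 2 h, then 169 and 177 CPM after 12 h on soft substrates. In stiff libraries Upp1 had 112 and 110.5 CPM at 0 h, 119 after 2 h, then 160.3 and 163 after 12 h. The soft libraries were above the stiff ones at 0 h and 12 h and below the 1 stiff library at 2 h. Upp1 had a mean log2 fold change over the 3 times of 0.028 (95% interval −0.070 to 0.12, adjusted p = 0.92, edgeR).

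Soga3 (chromosome 10, 29143839 to 29199630, plus strand) was picked for a lower level on soft substrates, and its difference was already large at 2 h. On soft substrates Soga3 had 5.98 and 5.90 normalised CPM at 0 h, 14.9 and 13.5 CPM after 2 h, then 27.3 and 28.4 CPM after 12 h of PD03 removal. Soga3 on stiff substrates had 7.93 and 7.51 CPM at 0 h, 19.0 and 22.0 after 2 h, then 42.9 and 44.6 after 12 h, above both soft libraries at each time. For Soga3 the log2 fold change of soft over stiff was −0.37 at 0 h against −0.65 at 12 h. At 2 h Soga3 was lower on soft gels, at −0.52 on the log2 scale (SE 0.11, 95% interval −0.75 to −0.30, adjusted p = 0.044, edgeR). With DESeq2 the 2 h difference missed the threshold (adjusted p = 0.083). It was also lost with all genes (adjusted p = 0.075, edgeR), with only the 2 h groups (adjusted p = 0.15, edgeR) and without soft replicate 1, soft replicate 2 or stiff replicate 2 (adjusted p = 0.23, 0.33 and 0.31, edgeR). During CHIRON removal Soga3 had 2.71 and 1.91 normalised CPM at 0 h, 2.07 and 1.82 CPM after 2 h, then 0.862 and 1.22 CPM after 12 h on soft substrates. In stiff libraries Soga3 had 2.50 and 2.50 CPM at 0 h, 2.32 after 2 h, then 1.18 and 1.87 after 12 h. Soft and stiff libraries overlapped at 0 h and 12 h, at levels of 0.862 to 2.71 CPM. Soga3 had a mean log2 fold change over the 3 times of −0.32 (95% interval −0.77 to 0.14, adjusted p = 0.76, edgeR). This interval held both 0 and the size at 12 h of PD03 removal, so at this depth the difference was not told apart from either.

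Lin28a (chromosome 4, 134003330 to 134018841, minus strand), the let-7 regulator, separated late. On soft substrates Lin28a had 112 and 106 normalised CPM at 0 h, 114 and 117 CPM after 2 h, then 331 and 326 CPM after 12 h of PD03 removal. Lin28a on stiff substrates had 118 and 111 CPM at 0 h, 118 and 119.6 after 2 h, then 404 and 406 after 12 h. They overlapped with the soft libraries at 0 h and lay above them at 2 h, narrowly, and at 12 h. For Lin28a the log2 fold change of soft over stiff was −0.072 at 0 h against −0.30 at 12 h. The 2 h value of Lin28a was −0.038 (95% interval −0.14 to 0.069, adjusted p = 0.89, edgeR). During CHIRON removal Lin28a had 42.8 and 44.2 normalised CPM at 0 h, 37.1 and 37.8 CPM after 2 h, then 10.8 and 8.90 CPM after 12 h on soft substrates. In stiff libraries Lin28a had 43.6 and 45.3 CPM at 0 h, 37.1 after 2 h, then 14.2 and 10.7 after 12 h, and the substrates overlapped at every time. The log2 fold change was −0.32 at 12 h (95% interval −0.61 to −0.031) with an unadjusted p of 0.032 and an adjusted p of 1.00 (edgeR's quasi-likelihood test). Over the 3 times it was −0.11 (95% interval −0.27 to 0.045, adjusted p = 0.75, edgeR).

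Foxp4 (chromosome 17, 47867133 to 47924645, minus strand) had separate soft and stiff libraries at 12 h. On soft substrates Foxp4 had 23.1 and 20.4 normalised CPM at 0 h, 24.8 and 23.3 CPM after 2 h, then 58.2 and 58.0 CPM after 12 h of PD03 removal. Foxp4 on stiff substrates had 26.6 and 22.3 CPM at 0 h, 24.5 and 25.3 after 2 h, then 76.4 and 74.5 after 12 h. The substrates overlapped at 0 h and 2 h, and at 12 h both stiff libraries were above both soft ones. For Foxp4 the log2 fold change of soft over stiff was −0.16 at 0 h against −0.38 at 12 h. The 2 h value of Foxp4 was −0.047 (95% interval −0.25 to 0.15, adjusted p = 0.93, edgeR). During CHIRON removal Foxp4 had 218 and 201 normalised CPM at 0 h, 212 and 194 CPM after 2 h, then 147 and 159 CPM after 12 h on soft substrates. In stiff libraries Foxp4 had 219 and 198 CPM at 0 h, 201 after 2 h, then 154 and 162 after 12 h, and the substrates overlapped at every time. Foxp4 had a mean log2 fold change over the 3 times of −0.0081 (95% interval −0.12 to 0.099, adjusted p = 0.98, edgeR), so a difference of the size at 12 h of PD03 removal lay outside its interval.

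Kif5a (chromosome 10, 127225696 to 127263348, minus strand), the motor gene, was picked at 0 h. On soft substrates Kif5a had 39.0 and 36.7 normalised CPM at 0 h, 30.9 and 27.9 CPM after 2 h, then 36.3 and 35.9 CPM after 12 h of PD03 removal. Kif5a on stiff substrates had 28.8 and 27.6 CPM at 0 h, 24.4 and 24.1 after 2 h, then 32.3 and 32.1 after 12 h, below both soft libraries at each time. For Kif5a the log2 fold change of soft over stiff was 0.43 at 0 h against 0.16 at 12 h. At 2 h it was 0.28 (95% interval 0.098 to 0.46) with an unadjusted p of 0.0037 and an adjusted p of 0.34 (edgeR's quasi-likelihood test). During CHIRON removal Kif5a had 27.3 and 22.9 normalised CPM at 0 h, 28.9 and 30.6 CPM after 2 h, then 22.8 and 22.3 CPM after 12 h on soft substrates. In stiff libraries Kif5a had 26.8 and 20.1 CPM at 0 h, 22.2 after 2 h, then 17.0 and 23.9 after 12 h. The substrates overlapped at 0 h and 12 h, and at 2 h both soft libraries were above the 1 stiff library. At 0 h, the matching medium, the log2 fold change was 0.096 (95% interval −0.22 to 0.41, adjusted p = 1.00, edgeR). Kif5a had a mean log2 fold change over the 3 times of 0.22 (95% interval 0.020 to 0.42) with an unadjusted p of 0.033 and an adjusted p of 0.69 (edgeR's quasi-likelihood test).

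Phex (chromosome X, 157162075 to 157415312, minus strand), the peptidase gene, rested on few counts, between 4 and 37 in any library used. On soft substrates Phex had 1.67 and 1.46 normalised CPM at 0 h, 0.641 and 0.636 CPM after 2 h, then 1.03 and 0.716 CPM after 12 h of PD03 removal. Phex on stiff substrates had 0.325 and 0.196 CPM at 0 h, 0.522 and 1.01 after 2 h, then 1.58 and 1.24 after 12 h. Both soft libraries were above both stiff ones at 0 h, the substrates overlapped at 2 h, and both soft libraries were below both stiff ones at 12 h. The raw counts at 0 h were 29 and 23 on soft and 5 and 4 on stiff substrates. For Phex the log2 fold change of soft over stiff was 2.59 at 0 h against −0.70 at 12 h. The 2 h value of Phex was −0.24 (95% interval −1.29 to 0.82, adjusted p = 0.94, edgeR). During CHIRON removal Phex had 0.738 and 0.954 normalised CPM at 0 h, 0.853 and 1.13 CPM after 2 h, then 1.39 and 1.73 CPM after 12 h on soft substrates. In stiff libraries Phex had 1.30 and 0.869 CPM at 0 h, 1.39 after 2 h, then 1.64 and 1.12 after 12 h. At 0 h, the matching medium, the log2 fold change was −0.35 (95% interval −1.30 to 0.60, adjusted p = 1.00, edgeR), and over the 3 times it was −0.23 (95% interval −0.79 to 0.34, adjusted p = 0.87, edgeR). Both intervals ended below the size seen at 0 h of PD03 removal.

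**Figure D2:**
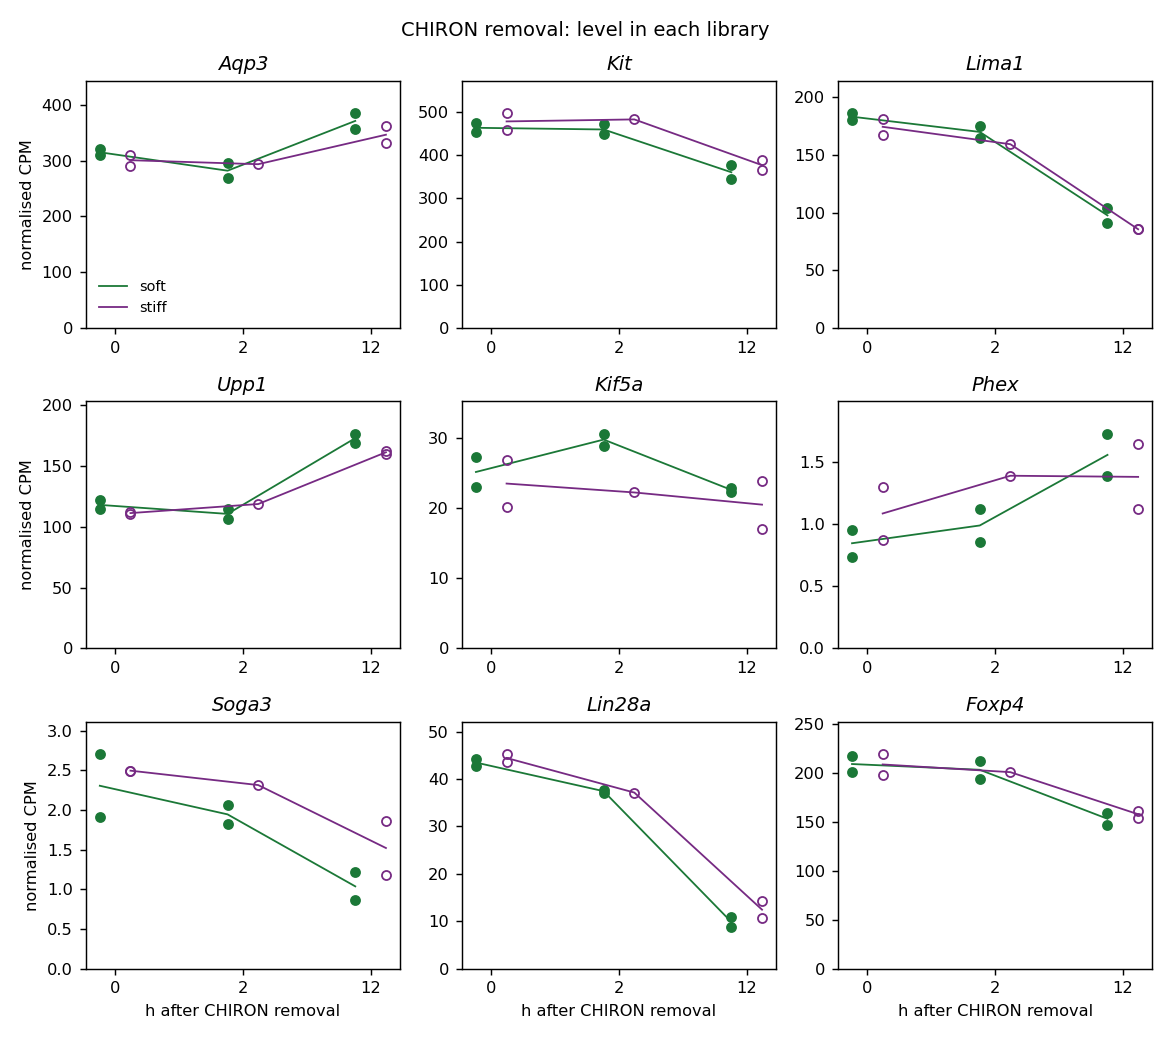
Normalised CPM (vertical axis, from 0) of each gene against hours after CHIRON removal (horizontal axis, times evenly spaced). Filled green points are single libraries on soft substrates, open purple points single libraries on stiff substrates (1 library at 2 h), and lines join the group means. Soft and stiff points lay close together in most panels, and Lin28a dropped to between 8.90 and 14.2 CPM at 12 h.

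In counts, both soft libraries lay on 1 side of both stiff libraries in 6 of the 9 genes at 2 h of PD03 removal, against 36.2% of all genes. During CHIRON removal this held for 1 of 9 at 0 h (all genes 31.5%), for 2 of 9 at 12 h (all genes 31.2%) and, with 1 stiff library, for 6 of 9 at 2 h (all genes 67.9%). Separate libraries were thus common over all genes. For 0 h and 12 h of PD03 removal, the times used for the choice, no share of all genes is given, so separation there is only a description. The sign of the mean difference in CHIRON removal was that of the picked difference for 7 of the 9 genes, the exceptions being Kit and Phex. For all 13160 genes tested in both experiments the sign at 12 h of PD03 removal was shared with that mean in 51.6%, and for the 101 of them called at 12 h of PD03 removal in 58.4%. These shares use 12 h for every gene, whereas the picked difference of Kif5a and Phex was that of 0 h. At 12 h Phex had −0.70, the sign of its mean in CHIRON removal (−0.23). The picked size lay outside the 95% interval of the mean of times of CHIRON removal for 8 of the 9, with Soga3 as the exception, though for Kif5a only by 0.43 against an upper end of 0.42. At the matching time (0 h for Kif5a and Phex, 12 h for the others) it lay outside for 6 of the 9 and inside for Lima1, Lin28a and Soga3, whose intervals at 1 time were wider. The picked sizes chose the genes, which favours large values, and they have intervals of their own that this comparison leaves out. No share of all genes stands beside these counts. They and the same comparisons for single genes above are a description, and do not test whether a difference repeats.

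**Figure D3:**
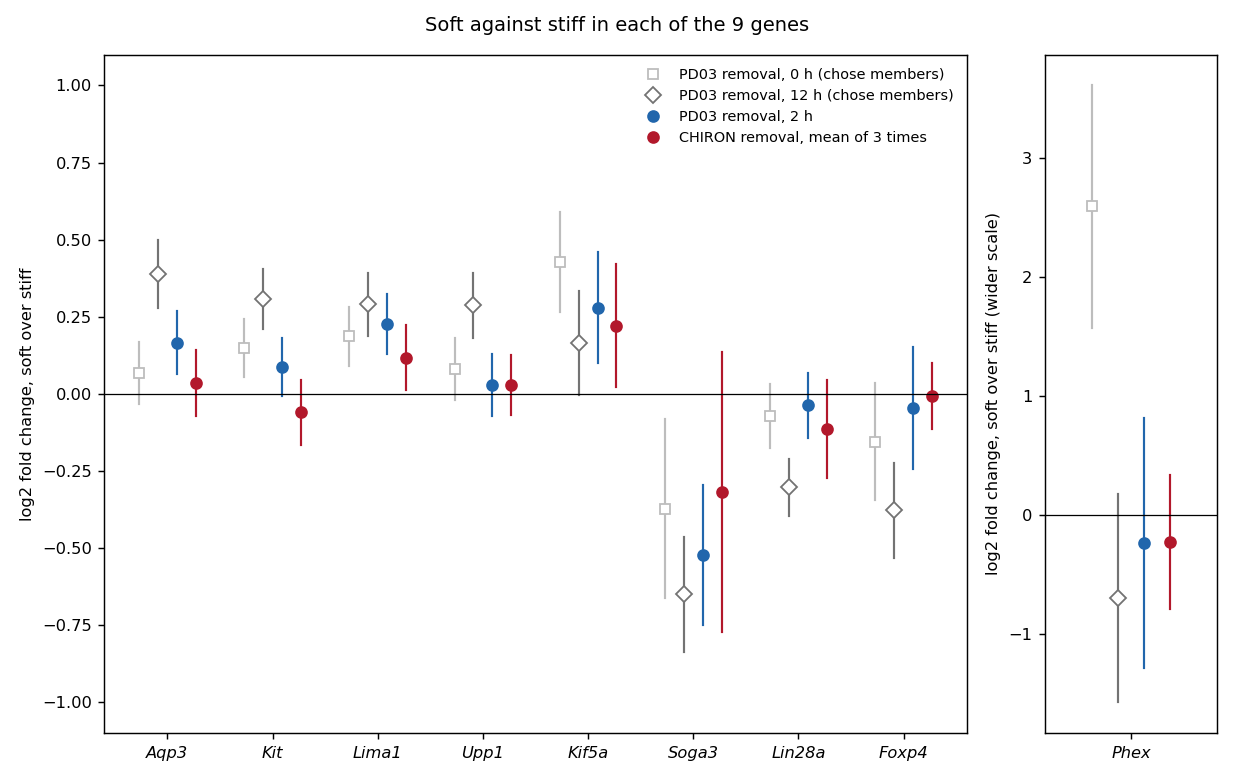
Log2 fold change of soft over stiff (vertical axis) for each gene, with 95% intervals from the edgeR fit as bars. Open grey symbols are the 0 h and 12 h values of PD03 removal that chose the genes, blue points are 2 h of PD03 removal and red points the mean of the 3 times of CHIRON removal. Phex is drawn on a wider scale. The blue bars of Aqp3, Lima1, Kif5a and Soga3 lie away from 0, and the red bars of all but Lima1 and Kif5a cross 0. For the blue bars no share of all genes is given, so their number is only a description.

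The response to inhibitor removal was then fitted in the mean of soft and stiff, which the rule for the genes did not use. It shares its libraries with the soft to stiff differences above. All 9 genes were chosen with earlier results of these data known, and Foxp4 was known for its response to inhibitor removal. The responses and their p-values are therefore a description, not a test on separate data. At 12 h after PD03 removal 4 of the 9 genes fell and 3 rose, against 25.1% and 23.8% of all genes. Aqp3 fell by 1.11 on the log2 scale (SE 0.037), Lima1 by 0.81 (SE 0.034), Upp1 by 0.65 (SE 0.036) and Kit by 0.51 (SE 0.033). Soga3 rose by 2.37 (SE 0.080), Lin28a by 1.71 (SE 0.034) and Foxp4 by 1.53 (SE 0.059). The largest adjusted p among these 7 was 1.9e-13, that of Kit (edgeR), and Lin28a had the smallest p of all 13423 genes. In each of the 7 genes all 4 libraries of 12 h lay on 1 side of all 4 of 0 h, which held for 41.1% of all genes. Phex (log2 fold change 0.81, adjusted p = 0.053, edgeR) and Kif5a (0.062, adjusted p = 0.39, edgeR) did not pass the threshold. The median size of the response was 0.81 in the 9 genes and 0.19 in all genes.

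Side by side with the substrate values, the 4 genes that fell by 12 h were those with the higher level on soft substrates at 12 h, and the 3 that rose were those with the lower level. Aqp3 went from 299 and 314 to 153 and 164 CPM on soft and from 299 and 286 to 124 and 118 on stiff substrates. Lin28a went from 112 and 106 to 331 and 326 on soft and from 118 and 111 to 404 and 406 on stiff substrates. The same libraries enter both comparisons and the genes were chosen for 1 of them, so the match of directions is not a separate result.

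At 2 h after PD03 removal Soga3 had already risen by 1.33 (SE 0.089, adjusted p = 3.5e-12, edgeR), and 3.39% of all genes were called higher. Lima1 fell by 0.19 (SE 0.033, adjusted p = 2.6e-04, edgeR) and Kif5a by 0.29 (SE 0.059, adjusted p = 0.0019, edgeR), where 2.67% of all genes were called lower. Kif5a was back near its starting level at 12 h, with 36.3 and 35.9 CPM on soft and 32.3 and 32.1 on stiff substrates. The other 6 genes had log2 fold changes between −0.039 and 0.13 at 2 h and did not pass the threshold.

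After CHIRON removal 2 genes rose and 5 fell by 12 h, against 15.2% and 15.4% of all genes. Lin28a had the largest change, −1.98 on the log2 scale (SE 0.089, adjusted p = 1.8e-11, edgeR), followed by Lima1 with a fall of 0.97 (SE 0.057, adjusted p = 6.3e-10, edgeR) and Soga3 with 0.95 (SE 0.25, adjusted p = 0.0077, edgeR). Foxp4 (−0.43) and Kit (−0.35) fell less, and Upp1 (0.54) and Aqp3 (0.22) rose. The largest adjusted p of the 7 was 0.0077, that of Soga3 (edgeR). In all 7 the 12 h libraries lay to 1 side of the 0 h libraries, which held for 31% of all genes. Kif5a (−0.18, adjusted p = 0.24, edgeR) and Phex (0.60, adjusted p = 0.15, edgeR) did not pass. At 2 h none of the 9 was called by edgeR or DESeq2 (all genes 0.828%), and 1, Lin28a, had an unadjusted p below 0.05 (log2 fold change −0.24, all genes 11.9%).

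**Figure D4:**
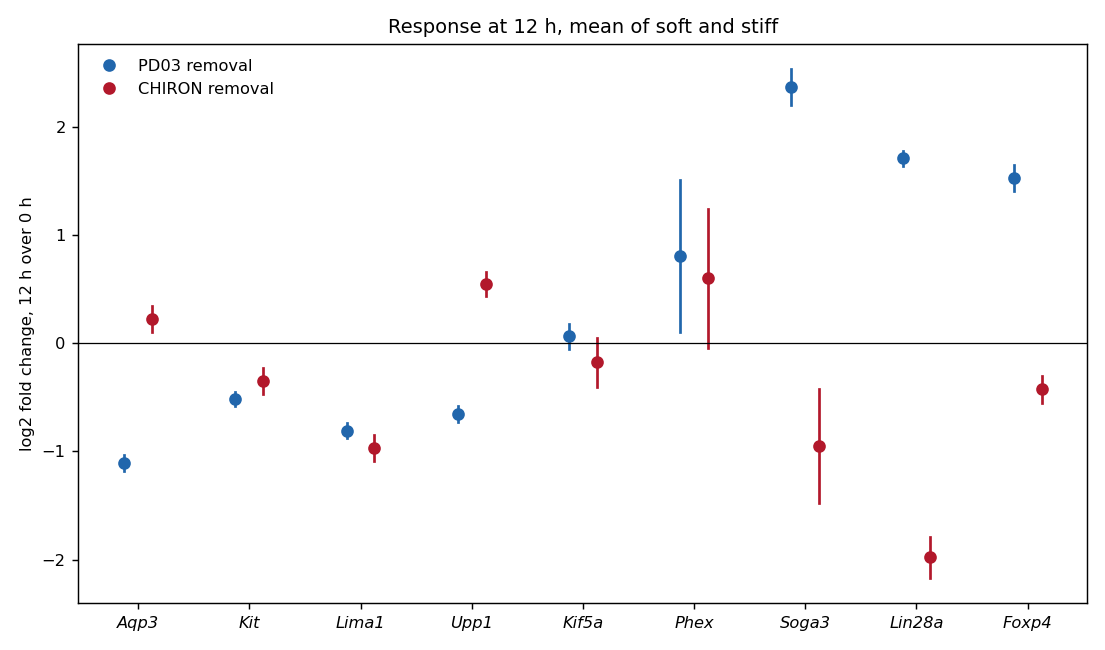
Log2 fold change of 12 h over 0 h in the mean of soft and stiff substrates (vertical axis) for each gene, with 95% intervals from the edgeR fit as bars. Blue points are PD03 removal and red points CHIRON removal. Kit and Lima1 lie below 0 in both experiments, whereas Aqp3, Upp1, Soga3, Lin28a and Foxp4 lie on opposite sides of 0.

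Kit and Lima1 fell in both experiments, whereas Aqp3, Upp1, Soga3, Lin28a and Foxp4 passed the threshold in opposite directions. The responses were fitted in separate tables with different media, and their difference was not tested.

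The other genes of the pathways and families were taken from 9 lists with 141 genes besides the members, of which 115 were tested in PD03 removal and 124 in CHIRON removal. Between soft and stiff, 0 of 115 were called at 2 h of PD03 removal (12 with an unadjusted p below 0.05, 0 with DESeq2) and 0 of 124 in the mean of CHIRON removal (3 with an unadjusted p below 0.05, 0 with DESeq2). For 2 h of PD03 removal no share of all genes stands beside the 12 of 115. By edgeR Kit ranked 1481 of the 13423 genes there, and its 95% interval held 0. Fewer genes than 1481 thus had an interval away from 0, a bound that does not show whether 12 of 115 is more than in all genes. The direct relatives of the 9 were among the listed genes that did not pass. At 2 h of PD03 removal Kif5c, another kinesin-1 heavy chain found in neurons, had a log2 fold change of soft over stiff of 0.32 (adjusted p = 0.35, edgeR), and Kif5b, the broadly expressed heavy chain, 0.022. Kitl, which encodes the ligand of Kit, had −0.22, Foxp1 −0.27, Lin28b 0.045 and Soga1 0.018. At 12 h of PD03 removal 2 of 115 were called. Ablim1, another actin-binding LIM gene, was higher on soft substrates by 0.40 (adjusted p = 0.014, edgeR), and Slc29a1, a nucleoside transporter that carries uridine, was lower, at −0.23 on the log2 scale (adjusted p = 0.011, edgeR).

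In the response to PD03 removal at 12 h, 46 of the 115 rose and 26 fell, with a median log2 fold change of 0.064, where 23.8% of all genes rose and 25.1% fell. DESeq2 called 59 of the 115 against 72 by edgeR. The counts of single lists below stand against the same shares of all genes. The lists were chosen with earlier results of these data known, so the counts are a description. Called genes are named by smallest adjusted p, so they do not stand for their list. Of 23 other genes of the Lin28 and let-7 pathway 14 rose and 1 fell, with a median of 0.15 against −0.0023 in all genes. Hmga1 (0.32) rose, as did Zcchc11 (0.36), a uridylyltransferase that acts with Lin28a on let-7 precursors, and Drosha (0.30) and Dicer1 (0.29), which process miRNA precursors. These changes were smaller than the rise of Lin28a itself. Lin28b (0.19, adjusted p = 0.27, edgeR) did not pass. In the Kit list 10 of 21 rose and 3 fell, including Mitf (−0.71) with a fall, and Kitl changed by −0.0082 (adjusted p = 0.97, edgeR).

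Of the 26 actin-bound LIM and adherens junction genes, 9 rose and 11 fell at 12 h of PD03 removal. Zyx, a focal adhesion LIM gene, rose by 1.58, whereas Csrp1 (−0.47), Ablim1 (−0.50) and Lims1 (−0.30) fell. Ctnna1, which encodes the α-catenin that Lima1 binds, fell by 0.18 on the log2 scale. Of the 24 pyrimidine genes 3 rose and 7 fell, with Slc29a1 up by 0.68 and Uck2, a uridine kinase, at −0.32. Of 12 kinesin-1 genes 5 rose and 2 fell, and the 2 that fell were the heavy chains Kif5b (−0.29) and Kif5c (−0.21), the latter not called by DESeq2 (adjusted p = 0.065). The relatives of Soga3, Soga1 (0.48) and Mtcl1 (0.28), and that of Foxp4, Foxp1 (0.81), rose. Of the neprilysin family, 2 of 4 rose and 1 fell, with Mme, the gene of neprilysin itself, at −0.70. Of the 2 other aquaporin genes tested, Aqp9 had −0.88 (adjusted p = 0.024, edgeR) at a mean of 1.25 CPM, and was not called by DESeq2 (adjusted p = 0.058).

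At 12 h of CHIRON removal 22 of 124 rose and 20 fell, with a median of −0.027, close to the 15.2% of all genes that rose and 15.4% that fell. Soga1 (0.57), Mtcl1 (0.24) and Foxp1 (1.07) rose there too, while Soga3 and Foxp4 fell. The single lists stand against these shares too, again as a description. Of 23 Lin28 and let-7 pathway genes 4 rose and 4 fell, with falls of Hmga1 (−0.34) and Drosha (−0.27) and a rise of Igf2bp2 (0.40). Kitl rose by 1.46 (adjusted p = 5.6e-04, edgeR) from a low level, with a mean of 2.30 CPM over the libraries. Of 28 actin-bound LIM and adherens junction genes 6 rose and 7 fell, led by a rise of Csrp2 (1.16) and of Ajuba (0.73).

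Levels were compared between genes per kilobase of exon. On soft substrates at 0 h of PD03 removal the order was Upp1 with 281 normalised CPM per kilobase, Aqp3 with 167, Lima1 with 42.6, Kit with 40.7, Lin28a with 27.2, Kif5a with 5.41, Foxp4 with 4.41, Soga3 with 1.42 and Phex with 0.248. On stiff substrates Foxp4 (4.96) stood above Kif5a (4.04), and the libraries of Lima1 and Kit overlapped. By 12 h on stiff substrates Lin28a, at 101 CPM per kilobase, had passed Aqp3 at 66.2, and Soga3 had reached 10.5. At 12 h of CHIRON removal on stiff substrates Lin28a was at 3.12 and Aqp3 at 189. Levels already differed between the experiments at 0 h. On soft substrates of CHIRON removal Foxp4 was then at 42.5, Upp1 at 60.2 and Lin28a at 10.9, while Aqp3, at 172, was near its level in PD03 removal. The order above thus holds for PD03 removal only, and levels were not tested between the experiments.

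Over the 23 libraries, with each experiment centred on its own mean, the log2 CPM of the 9 genes were correlated with those of 8188 genes with a mean of at least 10 CPM. The nearest were Ddx58 (Pearson r 0.99), Khdrbs1 (0.97) and Gja1 (0.97) for Lin28a, Bhmt (0.98), Calcoco2 (0.97) and Jam2 (0.97) for Upp1, and Acss1 (0.98), Tfcp2l1 (0.97) and Ctsa (0.97) for Lima1. For Aqp3 they were Ostf1 (0.97), Reep1 (0.97) and Fbxo15 (0.96), for Foxp4 Zmiz2 (0.96), Smpd4 (0.96) and Ino80e (0.96), and for Kit Tgfbr3 (0.96), Ly75 (0.95) and Ubxn2a (0.95). Soga3 was nearest to Sf3b4 (0.92), Glo1 (0.92) and Etv4 (0.92), while Kif5a reached 0.83 with Rfx5, 0.82 with Ppfia4 and 0.78 with Dnase2a, and Phex 0.74 with Gm9008, 0.69 with Ddx47 and 0.68 with Tpcn1. Among the members Kit and Lima1 had a correlation of 0.90 and Aqp3 and Upp1 one of 0.89, whereas Aqp3 and Foxp4 had −0.97 and Upp1 and Lin28a −0.96. All points share libraries and time courses, so these values describe the pattern over the 23 libraries.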

How the data were processed

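RNA of E14 mESCs was sequenced after depletion of ribosomal RNA in 24 libraries. Trimming by the authors used Trim Galore, alignment to GRCm38 used TopHat v2.1.0, and reads were assigned to Ensembl 86 genes by featureCounts v1.5.0. Raw counts were deposited. Without a stated strand setting, counts of genes that overlap others are uncertain to that extent. The table of PD03 removal also held 12 columns that match no sample here and were left aside, and 23 empty lines. Gene types were taken from GENCODE M21 (34890 and 48349 genes matched, 19323 and 21695 protein-coding).

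Protein-coding genes that passed filterByExpr (minimum count 10, minimum total count 15) were normalised by TMM and fitted with 6 groups per experiment in edgeR 4.0.16 (R 4.3.3). Its quasi-likelihood test was used with Benjamini-Hochberg adjustment over the 13423 and 14615 genes tested and a threshold of 0.05. All 9 genes passed the filter in both experiments. Total counts ran from 16222196 to 31111260 per library used, and the common biological coefficients of variation were 0.0386 and 0.0797. The SE was the log2 fold change divided by the square root of F. Normalised CPM used TMM library sizes. DESeq2 1.42.0, its size factors in edgeR, no filter, all genes, only the groups compared, blocks by replicate or tube number, all 12 libraries of CHIRON removal, the mean of 0 h and 12 h only, and leaving out each library were alternatives. The procedure was tested on simulated data. Replicate numbers were taken as names only, since mean correlations between same-numbered libraries, each centred on its group, were −0.0028 and −0.020.

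The 9 genes, the lists and the motifs were chosen with earlier results of these data known. Besides the 9, the text names tested paralogs and direct partners and, of each list, at most 4 called genes with the smallest adjusted p. Sequences came from RefSeq. Tables used pandas 2.3.3 and numpy 2.4.6 in Python 3.11.15, intervals scipy 1.17.1, and plots matplotlib 3.10.9.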

Additional observations from a re-analysis of the deposited data

Results flagged for a closer look

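The 12 h response had opposite directions in the 2 experiments for 5 of the 9 genes, and in each of them the 12 h and 0 h libraries of each experiment did not overlap. The log2 fold changes of 12 h over 0 h after PD03 removal and after CHIRON removal were −1.11 and 0.2203 for Aqp3, −0.6548 and 0.5433 for Upp1, 2.367 and −0.9474 for Soga3, 1.709 and −1.977 for Lin28a, and 1.527 and −0.4265 for Foxp4. The difference between the experiments was not tested, and medium, experiment and counting table cannot be told apart.

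Phex lay above its other libraries in the library left out of CHIRON removal (stiff replicate 1 at 2 h), which entered no comparison. It had 11 of 171333 counts there, or 64.2 CPM of the raw total (exact 95% interval 32.1 to 115, counting error only), against 0.587 to 1.39 CPM in the other 11 libraries. In the same library Aqp3, Lima1, Kif5a and Foxp4 had 1 count each, Lin28a 2, Kit 10, and Upp1 and Soga3 were at 0. Aqp3 was thus at 5.84 CPM against 218 to 310 in the others, and Kit at 58.4 against 278 to 404. Lima1, Upp1 and Foxp4 also lay far below their other libraries, whereas Lin28a lay within its range. Protein-coding genes held 56.7% of its counts, against 78.0% to 85.3% in the others, so the value of Phex is not particular to that gene.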

How the results depend on the processing

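Of 1259 alternative values of single genes, 59 changed sign, none of them called before or after. Among values that did not choose the genes, 18 alternatives lost the threshold and 1 gained it. Of the 90 alternatives of the calls that chose the genes, 20 lost the threshold without moving by more than the spread of the replicates, 7 for Phex, 6 for Kif5a, 4 for Foxp4, 2 for Upp1 and 1 for Lima1. With at most 2 libraries per group, small differences and sparse genes such as Phex cannot be resolved. The calls of Lima1 and Soga3 at 2 h of PD03 removal were lost as described above, and Aqp3, Kit, Lima1, Upp1, Soga3 and Foxp4 lost their call at 12 h of CHIRON removal with all 12 libraries.

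Between soft and stiff, the 4, 18 and 103 genes called at 0 h, 2 h and 12 h of PD03 removal became 29, 71 and 187 without the low-count filter. Leaving out 1 library gave 0 to 2 at 0 h (0 without soft replicate 1 or stiff replicate 1), 5 to 13 at 2 h (lowest without soft replicate 1 or 2 or stiff replicate 2) and 12 to 32 at 12 h, fewer without any of the 4. At 0 h DESeq2 called 2 and the fit of all genes 0, and at 12 h the fit of only the groups compared called 175. In CHIRON removal the 0 genes called in the mean of times, at 0 h, 2 h and 12 h became 100, 17, 54 and 15 without the filter, and 30 at 2 h with only the groups compared. Leaving out 1 library gave 0 to 15 for the mean (15 without soft 12 h replicate 1 or stiff 0 h replicate 1, 12 without stiff 0 h replicate 2) and 0 to 12 at 0 h (12 without stiff replicate 1). For 2 h against 0 h of CHIRON removal the 121 genes became 350 without the filter, 23 with the tube block, 3 with all 12 libraries and 53 to 132 without 1 library (53, 54 and 75 without soft 0 h replicate 1, soft 0 h replicate 2 and soft 2 h replicate 1). With all 12 libraries 1126 in place of 4481 genes were called at 12 h against 0 h of CHIRON removal.

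With the replicate block, 67 in place of 121 genes were called at 2 h against 0 h of CHIRON removal, and no other count moved by over 1.5 times, while Phex at 0 h of PD03 removal lost its call (adjusted p = 0.064, edgeR). The numbers did not pair the libraries.

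The sign changes were as follows. With all 12 libraries of CHIRON removal the soft to stiff log2 fold change became 0.20 for Kit and 0.26 for Foxp4 in the mean of times, and 0.83 for Aqp3, 0.72 for Kit and 0.54 for Upp1 at 2 h. At 0 h Soga3 became 0.032 with the tube block, and Foxp4 −0.00077 with DESeq2, −0.00074 with its size factors, −0.0033 without the filter and −0.014 with the tube block. At 2 h Lin28a became −0.028 with the replicate block and −0.022 with the tube block, and Foxp4 −0.0047 and −0.027. The responses of Kit and Upp1 at 2 h of CHIRON removal became −0.0016 and −0.0020 with DESeq2, −0.0016 and −0.0021 with its size factors, −0.0042 and −0.0044 without the filter, −0.012 and −0.012 with all genes, −0.00087 and −0.0040 with the replicate block, −0.013 and −0.018 with the tube block, and −0.39 and −0.32 with all 12 libraries.

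Leaving out 1 library gave these ranges where the sign changed. For soft over stiff at 2 h of PD03 removal they were −0.025 to 0.079 for Upp1 and −0.65 to 0.29 for Phex, and for the 2 h response −0.010 to 0.042 and −0.13 to 0.34. For soft over stiff in CHIRON removal they were −0.031 to 0.017 for Foxp4 in the mean of times, and at 0 h −0.10 to 0.0074 for Kit, −0.10 to 0.32 for Kif5a, −0.40 to 0.12 for Soga3 and −0.074 to 0.078 for Foxp4. At 2 h they were −0.13 to 0.0081 for Aqp3, −0.0023 to 0.027 for Lin28a and −0.045 to 0.079 for Foxp4, and at 12 h −0.081 to 0.41 for Kif5a, −0.092 to 0.46 for Phex and −0.10 to 0.012 for Foxp4. For the 2 h response to CHIRON removal they were −0.027 to 0.031 for Kit, −0.028 to 0.029 for Upp1 and −0.012 to 0.19 for Kif5a.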

Other observations

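Both experiments started from 2i+LIF at 0 h, yet several of the 9 genes had different levels there. Foxp4 had 23.1 ± 2.58 normalised CPM in the 4 libraries of 0 h of PD03 removal and 209 ± 11.0 in those of CHIRON removal (SD, n = 4), 9.06-fold higher in the latter. Upp1 had 537 ± 22.5 and 115 ± 4.96, Lin28a 112 ± 5.08 and 44.0 ± 1.03, and Soga3 6.83 ± 1.04 and 2.40 ± 0.344, each lower in CHIRON removal. Aqp3 had 299 ± 11.7 and 308 ± 12.4. Over all 13160 genes tested in both, 27.3% differed between the experiments by more than 1 on the log2 scale and 0.942% by more than 3. These shares used mean CPM plus 1, unlike the fold of Foxp4. The median log2 ratio of CHIRON removal over PD03 removal was −0.26, an offset that these shares include. The tables were normalised separately and the difference was not tested.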
